A study of Homo sapiens with 6 samples.

Results

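The expression of hepcidin and 9 other genes of iron handling was examined in HepG2 cells, a human hepatoma line, with and without the water extract of Barringtonia racemosa leaves. The genes were HAMP, TFR2, HFE, TF, CP, TFRC, SLC11A2, SLC40A1, ACO1 and NCOA4. They were chosen by name with the values of this contrast already known, HAMP being among its largest differences, so their differences are given as a description and without a test. All 10 had exactly 1 transcript cluster with a value above 0, and they stand for 10 of the 19291 tested clusters and 10 of 18372 genes. The series holds 3 arrays of untreated HepG2 cells and 3 of HepG2 cells given 50 µg/ml of the leaf extract for 24 h, and no other agent or genotype is named for either group. Both groups were grown in DMEM with foetal bovine serum, and a vehicle for the untreated cells is not given in the sources used here. HepG2 is a tumour line grown without the other cells of the liver, and the arrays measure the culture as a whole, so that fewer expressing cells and less RNA per cell cannot be told apart.

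Hepcidin, the product of HAMP, is a peptide hormone made mainly by hepatocytes. It binds the iron exporter ferroportin, encoded by SLC40A1, and causes its degradation, so that less iron enters the plasma from the gut, from macrophages and from the liver. In hepatocytes, HAMP transcription is raised by bone morphogenetic proteins (BMP) through SMAD factors, a signal to which HFE and TFR2 add information on the saturation of transferrin, and by interleukin 6 through STAT3. Within cells, iron regulatory proteins bind stem loops in mRNAs such as those of TFRC and ferritin when iron is scarce, which keeps TFRC mRNA from decay and blocks the translation of ferritin.

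The promoter of HAMP is shown because it carries the elements through which these signals are known to act, and because HAMP had by far the largest difference of the 10 genes. The 250 bases before the annotated start site lie at chr19:35282278-35282527 on the plus strand (RefSeq, GRCh38.p14). Capitals mark, in order, the core letters of a BMP response element (GGCGCC) and the letters of a STAT site (TTCNNNGAA).
HAMP: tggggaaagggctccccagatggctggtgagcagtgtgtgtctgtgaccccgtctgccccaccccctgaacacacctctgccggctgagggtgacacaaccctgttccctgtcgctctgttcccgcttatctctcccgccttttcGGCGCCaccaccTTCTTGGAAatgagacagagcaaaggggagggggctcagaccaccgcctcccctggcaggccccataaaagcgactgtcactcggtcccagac

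Positions are counted from the start site, with the last base before it as -1. GGCGCC lay at -105 to -100 and TTCTTGGAA at -93 to -85, with 6 bases between them. Both strands were searched in windows of 250 bases before and 50 after each annotated start. GGCGCC was found in 19.2% of 35116 such windows of all genes, TTCNNNGAA in 7.66% and both together in 0.766%. The table held 13 windows for 8 of the iron handling genes, since TF, NCOA4 and SLC11A2 have more than 1 start, and held none for CP and TFR2. GGCGCC was also present in windows of TF, TFRC and ACO1, whereas TTCNNNGAA was found in the HAMP window alone among the 13. The E-box CACGTG, present in 7.26% of all windows, was in none of them. The core ACGTG of the element bound by hypoxia inducible factors, present in 21.4% of all windows, lay at -88 to -84 in TFRC, at -10 to -6 in HFE and at 29 to 33 in a window of TF. A match is a description of the letters and not evidence of binding in these cells.

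**Figure D1:**
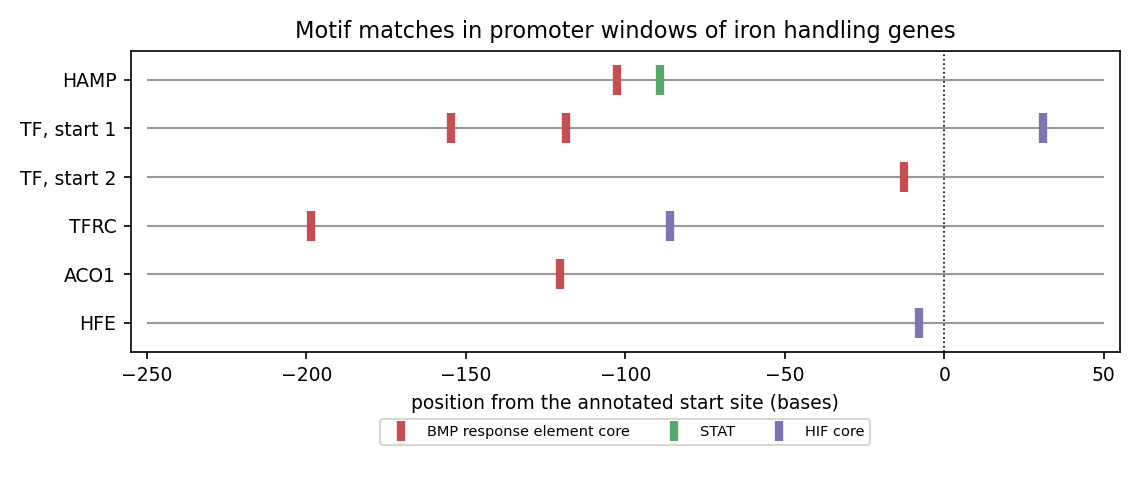
Positions of motif matches in promoter windows of the iron handling genes that held at least 1 match, in bases from the annotated start site (dotted line). Each grey line is 1 window and each bar 1 match. HAMP is the only gene drawn with a STAT match, 6 bases downstream of its BMP response element core.

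Hepatocyte and hepatoma markers were bright, and the 7 of 8 that had a cluster lay between log2 values of 5.51 for the transcription factor FOXA2 and 11.31 for APOB in untreated cells. Of 10 markers of blood, endothelial, stromal and squamous cells, 9 had a cluster. The summed linear level of these 9 was 198 to 214 on the untreated arrays and 183 to 224 on the leaf extract arrays, and for each of them the groups overlapped. CD68 was the brightest at 6.90, and PTPRC, which marks leukocytes, was at 2.56 in untreated cells. No probe detection call accompanies the values. Olfactory receptors, hardly transcribed outside the nose, served to gauge background, and the 95th percentile of their 357 clusters was 3.22 to 3.49 on the 6 arrays. Leaf extract array 2 stood nearer to the untreated arrays than the other 2 did. Over all tested clusters, its correlation with the untreated arrays was 0.992 to 0.993, against 0.984 to 0.988 for leaf extract arrays 1 and 3, and the untreated arrays correlated with each other at 0.993 to 0.995. These correlations run across clusters, which are not independent replicates. For this reason the difference on leaf extract array 2 is given separately for genes on which it departed from the other arrays. The values of all tested clusters were also less spread on leaf extract arrays 1 and 3. Their lower quartile was 3.14 on both, and their 95th percentile was 7.93 and 7.92. On the untreated arrays and leaf extract array 2 these were 3.03 to 3.08 and 8.06 to 8.16. A narrower spread lowers bright clusters and raises dim ones, and its share in the small differences of single genes was not tested.

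HAMP was lower on every array of leaf-treated cells. Its log2 values were 6.45, 6.71 and 6.72 on untreated arrays 1, 2 and 3 and 4.25, 4.82 and 4.45 on leaf extract arrays 1, 2 and 3. The lowest untreated array was 1.63 above the highest leaf extract array, so that the groups were widely separated. The untreated mean was 6.63 ± 0.15 (SD, n = 3). The mean after the extract was 4.50 ± 0.29 (SD, n = 3). The difference of -2.12 (standard error 0.16) corresponds to 23.0% of the untreated level, or a level 4.35 fold lower on the linear scale. Only 1 of the 19291 clusters had a larger decrease. The level in untreated cells was higher than that of 86.6% of clusters, and after the extract it was higher than that of 65.1%. The values after the extract were still above this background range.

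The difference of HAMP was smallest on leaf extract array 2, at -1.81 from the untreated mean, against -2.38 and -2.18 on arrays 1 and 3. Without array 2 the difference was -2.28, and it was -2.08 after quantile normalization and -2.19 after centring on array medians. HAMP therefore kept its direction and most of its size under each of these settings.

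Ceruloplasmin, encoded by CP, is the copper-containing ferroxidase of plasma that oxidises iron as it leaves cells and helps to load it onto transferrin. CP was higher on each leaf extract array. Its log2 values were 8.02, 7.56 and 7.63 on the untreated arrays and 8.25, 8.37 and 8.45 on the leaf extract arrays. The nearest arrays of the groups were 0.22 apart, and untreated array 1 stood above the other 2 untreated arrays by more than this gap. The means were 7.74 ± 0.25 (SD, n = 3) and 8.36 ± 0.11 (SD, n = 3), a difference of 0.62 (standard error 0.13) or a level 1.54 fold higher. By size of increase CP ranked 50 among the tested clusters. Unlike HAMP, CP was as far from the untreated mean on leaf extract array 2 (0.64) as on arrays 1 (0.51) and 3 (0.72). The difference was 0.76 without untreated array 1, 0.53 without untreated array 2 and 0.73 after quantile normalization.

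The other 8 genes had groups that overlapped, with differences from -0.20 to 0.16. Among the iron handling genes, 1 of 10 was therefore lower and 1 of 10 higher with separate groups. The background of such separation was 7.41% of all clusters lower and 6.14% higher, and nothing is read from the count because the genes were chosen with this contrast known. The median difference of the 10 genes was -0.0273, against 0.0108 over all clusters.

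**Figure D2:**
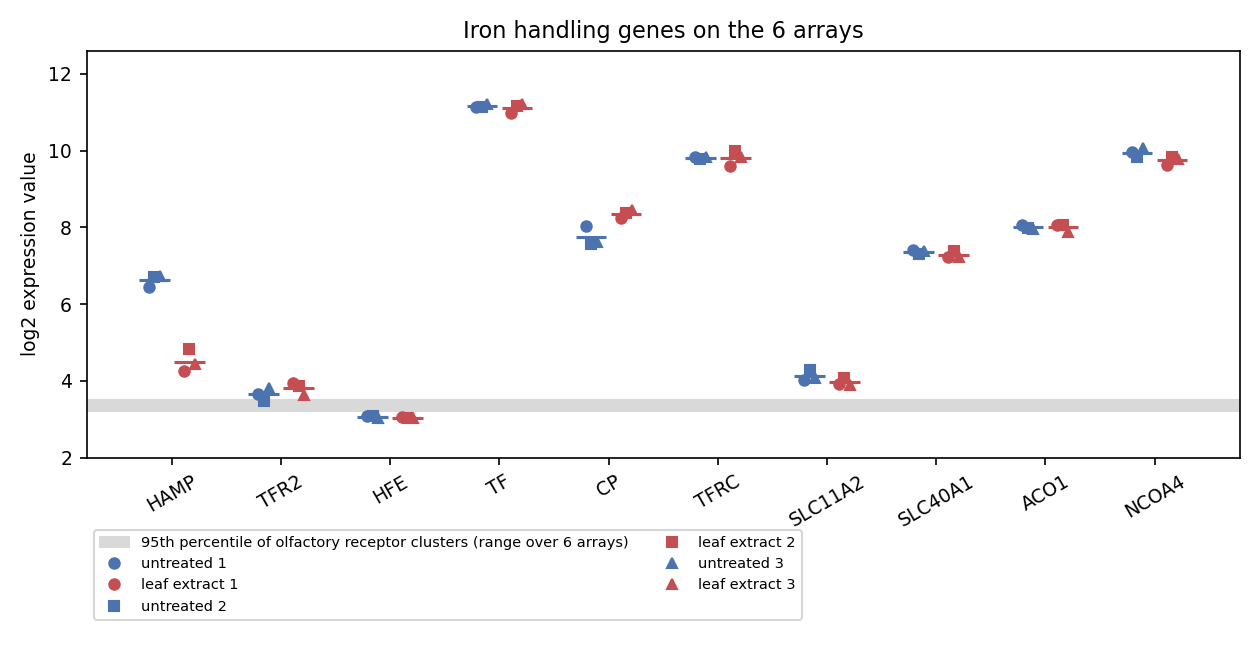
Log2 expression values of the 10 iron handling genes on each array. Blue marks are untreated and red marks leaf-treated cells, the shape gives the array number, and horizontal lines are group means (n = 3). HAMP lies lower (means 6.63 and 4.50) and CP higher after the extract, while the arrays of the other genes overlap. The grey band is the range over arrays of the 95th percentile of olfactory receptor clusters.

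The partners of hepcidin control on the hepatocyte surface are TFR2, a receptor for iron-loaded transferrin, and HFE, a relative of MHC class I molecules that moves between the receptors of transferrin. TFR2 was dim, at 3.67, 3.47 and 3.82 on the untreated and 3.95, 3.85 and 3.62 on the leaf extract arrays. The difference of 0.16 (standard error 0.12) was within the range of the arrays. HFE lay below that 95th percentile, with an untreated mean of 3.06 ± 0.04 (SD, n = 3) and a difference of -0.0179 (standard error 0.06). No statement on a change of HFE can be made at this signal.

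Transferrin, the plasma carrier of iron encoded by TF, was among the brightest clusters and lay above 99.9% of them. It had log2 values of 11.14, 11.13 and 11.21 in untreated and 10.98, 11.17 and 11.21 in leaf-treated cells, which overlapped. The difference was -0.0366 (standard error 0.08).

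For the uptake of iron, TFRC encodes the receptor that takes up iron-loaded transferrin and SLC11A2 the transporter DMT1, which moves ferrous iron across membranes. TFRC was at 9.82, 9.78 and 9.83 on the untreated arrays and at 9.60, 9.99 and 9.84 on the leaf extract arrays. The untreated arrays lay close together, whereas the leaf extract arrays lay on both sides of them, and the difference was -0.0013 (standard error 0.11). It was 0.18 on leaf extract array 2 alone and -0.0909 without it, so that its direction is not settled. SLC11A2 was at 4.02, 4.28 and 4.07 and at 3.93, 4.07 and 3.89. Its difference was -0.16 (standard error 0.09), and the highest leaf extract array, array 2, lay within the untreated range and differed from the untreated mean by -0.0536.

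Ferroportin is the only known exporter of iron from mammalian cells and the target of hepcidin. The SLC40A1 cluster was at 7.41, 7.31 and 7.38 in untreated cells and at 7.23, 7.38 and 7.22 after the extract. Leaf extract arrays 1 and 3 were below the untreated range and array 2 was inside it. The difference of -0.0882 (standard error 0.07) turned to 0.0509 after quantile normalization and was -0.15 after centring on array medians. Hepcidin acts on ferroportin protein, which arrays do not measure.

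Inside the cell, ACO1 encodes a cytosolic aconitase that becomes iron regulatory protein 1 when it loses its iron-sulfur cluster, and NCOA4 encodes the receptor that carries ferritin to lysosomes for the release of its iron. ACO1 was at 8.05, 7.99 and 7.96 on the untreated arrays and at 8.07, 8.06 and 7.88 on the leaf extract arrays, a difference of 0.0036 (standard error 0.08) with overlapping groups. NCOA4 was at 9.95, 9.84 and 10.06 in untreated cells and at 9.62, 9.84 and 9.78 after the extract. Its difference of -0.20 (standard error 0.09) was the largest among the 8 genes with overlapping groups, the overlap being between untreated array 2 and leaf extract array 2, where the difference was -0.11. The sign of NCOA4, SLC11A2, TFR2 and HFE was the same under all settings tried, whereas that of TFRC, TF, SLC40A1 and ACO1 was not.

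**Figure D3:**
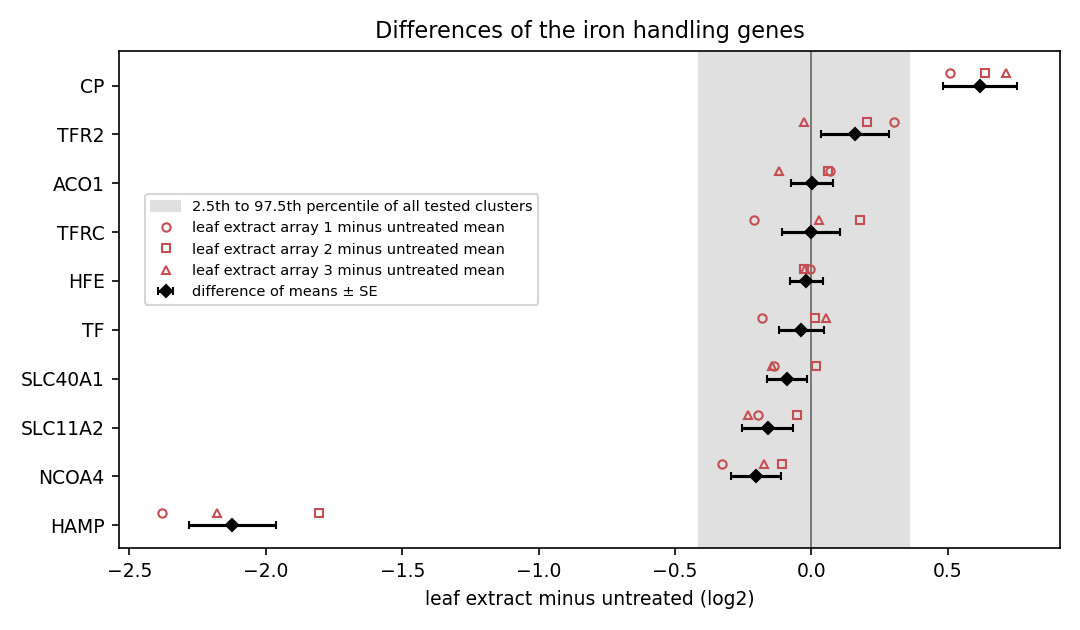
Difference between leaf-treated and untreated cells for each iron handling gene on the log2 scale. Black diamonds with bars are the difference of group means with its standard error (n = 3 arrays a group), open red marks are each leaf extract array minus the untreated mean, and the grey band spans the 2.5th to 97.5th percentile of all tested clusters (-0.411 to 0.357). HAMP lies far below and CP above the band, and the other 8 lie inside it.

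The other genes of iron metabolism and of hepcidin control were taken as 9 lists written from their known roles, and these genes were tested. Of 105 genes, 94 had a cluster with a single symbol and a value above 0. None was called at an adjusted p under 0.05 by limma, and the smallest adjusted p was 0.33, for HP. Over all clusters 0.00518% were called, which is the single cluster of ID2. ID2 was left out of the lists although its relative ID1 was in them, so the absence of calls does not extend to it. At an unadjusted p under 0.05, 5 of the 94 genes (5.32%) were higher and 7 (7.45%) lower, against 3.87% and 5.9% of all clusters. These counts rested on few arrays: they were 10 and 17 without leaf extract array 2, 7 and 3 without leaf extract array 3, 4 and 3 without untreated array 1 or 3, and 3 and 5 without untreated array 2. The analysis of variance without moderation also called none after adjustment. When a change of 1.5 fold was required as well, as in the series' design, 0 higher and 3 lower genes (3.19%) remained, ID1, HP and ISCA1, against 0.27% higher and 0.57% lower over all clusters (52 and 110). Centring on array medians moved the latter counts to 30 and 189. Without leaf extract array 3, 1 gene was higher and 1 lower. Without untreated array 1 or 3 or leaf extract array 1, 2 were lower. With the mean of a gene's clusters, 2 were lower as well. ISCA1 had passed through the brighter of its 2 clusters only, and the dimmer was 1.16 fold lower. Whether both clusters measure the ISCA1 gene itself was not tested. The groups were separate for 9 higher and 9 lower genes of 94, or 9.57% each, against 6.14% and 7.41% of all clusters. The median difference over the 94 genes was -0.0196.

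BMP and SMAD genes lead to HAMP transcription, and 15 of the 17 listed were measured. ID1, which keeps helix-loop-helix factors from binding DNA and is a target of the same SMAD factors as HAMP, had log2 values of 6.05, 5.45 and 5.71 in untreated cells and 5.26, 4.51 and 4.77 after the extract. All leaf extract arrays were below all untreated arrays. Its difference was -0.89 (standard error 0.23, limma adjusted p = 0.41). On leaf extract array 2 ID1 was at its lowest, whereas HAMP was at its highest of the 3 leaf extract arrays there. TMPRSS6, the membrane protease that cleaves the BMP co-receptor hemojuvelin and so restrains HAMP, was at 3.14 to 3.18 in untreated cells and 3.33 to 3.56 after the extract. Its difference was 0.27 (standard error 0.08, limma adjusted p = 0.47). All its untreated values lay below the background range, and the leaf extract values lay inside it or just above. The receptors and signal carriers BMPR2, NEO1, SMAD4, SMAD5 and SMAD1, with untreated means from 4.97 to 7.41, had differences from -0.24 to -0.0230, with overlapping groups. BMPR2 and NEO1 were on the other side on leaf extract array 2, at 0.20 and 0.15. The BMP receptor ACVR1, at 4.26, had a difference of 0.19 (standard error 0.09), also with overlapping groups. SMAD7, an inhibitor induced by the pathway, had a difference of -0.32 (standard error 0.13, limma adjusted p = 0.51) with overlapping groups. SMAD6, another inhibitor that the pathway induces, and its target ATOH8 had differences of 0.18 and 0.14 at untreated means of 3.54 and 3.31, again with overlapping groups. The ligands BMP2 and BMP6 and hemojuvelin (HJV) were at 2.94 to 3.35, within or below the background range. The median of the list was -0.0230. It was -0.14 when clusters with a mean under 4 were left out, against -0.065 over all remaining clusters.

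In the interleukin 6 arm, 10 of 10 genes were measured and the median was 0.0662. IL6ST, the signalling subunit of the receptor also called gp130, was at 9.51, 9.43 and 9.52 in untreated cells and at 9.27, 9.38 and 9.26 after the extract, a difference of -0.18 (standard error 0.07, limma adjusted p = 0.51). STAT3 was at 7.92, 7.98 and 7.93 and at 8.02, 8.31 and 8.10, a difference of 0.20 (standard error 0.09, limma adjusted p = 0.51). The difference of STAT3 was 0.37 on leaf extract array 2 alone and 0.12 without it. SOCS3, a feedback inhibitor that STAT3 induces, was at 3.57 on each untreated array, little above the background range. The deposited value was exactly the same on these arrays and leaf extract array 3, and such a tie gives no measure of the spread between replicates. Its difference was 0.0887 (standard error 0.07), with overlapping groups.

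Acute phase proteins are plasma proteins of the liver that, like hepcidin, respond to interleukin 6, and 11 of 12 were measured. They did not share a direction. Haptoglobin (HP), which binds free haemoglobin, was at 8.37, 8.31 and 8.31 in untreated cells and 7.75, 7.85 and 7.41 after the extract. This was the clearest separation among the companion genes, with a gap of 0.46 between the groups. Its difference was -0.66 (standard error 0.12, limma adjusted p = 0.33). The protease inhibitor SERPINA3 was at 8.39, 8.33 and 8.51 and at 8.98, 9.15 and 8.67, a difference of 0.53 (standard error 0.13, limma adjusted p = 0.41). ORM2, an orosomucoid, had a difference of -0.34 (standard error 0.12, limma adjusted p = 0.51). Its near-identical copy ORM1 had one of -0.35 (standard error 0.16) with overlapping groups. On leaf extract array 2 ORM1 differed by -0.0034, against -0.40 and -0.65 on arrays 1 and 3, and ORM2 by -0.19. Probes may not separate ORM1 from ORM2, nor HP from the related gene HPR. The fibrinogen genes FGA, FGB and FGG, at untreated means of 7.88 to 10.21, had differences from -0.12 to -0.0717 with overlapping groups.

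Of the storage genes, the ferritin light chain FTL was bright at 9.69 and had a difference of -0.30 (standard error 0.13, limma adjusted p = 0.51) with overlapping groups. On leaf extract array 2 FTL differed by -0.0853, against -0.49 and -0.31 on arrays 1 and 3. PCBP1, a chaperone that delivers iron to ferritin, was at 7.83, 7.88 and 7.85 in untreated cells and 7.45, 7.81 and 7.52 after the extract. Its difference of -0.26 (standard error 0.10, limma adjusted p = 0.51) was -0.0434 on leaf extract array 2 alone and -0.37 without it. FTH1, the ferritin heavy chain gene, had no cluster with a single symbol and a value above 0. The median of the 4 measured genes was -0.20. It was -0.259 when clusters with a mean under 4 were left out, against -0.065 over all remaining clusters. These 4 include FTMT, at 2.82 in untreated cells and below background.

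The 11 genes of iron uptake and reduction had a median of 0.15, against 0.0108 over all clusters. When clusters with a mean under 4 were left out, the list had 0.0184 and all remaining clusters -0.065. LCN2, which encodes a carrier of iron-binding siderophores, was at 4.73, 4.66 and 4.88 in untreated cells and 5.17, 5.01 and 5.02 after the extract. The difference was 0.31 (standard error 0.09, limma adjusted p = 0.45). MELTF, a membrane relative of transferrin, had an untreated mean of 3.48, inside the background range, and a difference of 0.35 (standard error 0.15, limma adjusted p = 0.51), which was 0.0987 on leaf extract array 2 alone and 0.48 without it. STEAP4, a metalloreductase, had a difference of 0.19 (standard error 0.06, limma adjusted p = 0.49) at an untreated mean of 2.51, below background. SLC39A14, a transporter of iron not bound to transferrin, was at 7.94 with a difference of -0.18 (standard error 0.12), which was 0.0780 on leaf extract array 2 alone.

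Among 5 genes listed for iron and haem transport and iron oxidation, HEPHL1 and ABCG2 had separate groups. HEPHL1, a ferroxidase related to ceruloplasmin, had a difference of 0.29 (standard error 0.11, limma adjusted p = 0.51) at an untreated mean of 2.81, below background, and 0.0781 on leaf extract array 2 alone. ABCG2, a transporter of porphyrins among other substrates, had one of 0.0660 (standard error 0.06) at 3.48, inside the background range, which turned to -0.0086 after quantile normalization. The haem exporter FLVCR1, at 6.80, had a difference of -0.24 (standard error 0.17) with overlapping groups, and 0.0495 on leaf extract array 2 alone. The median of the list was 0.0660. Leaving out clusters with a mean under 4 leaves FLVCR1 alone, at -0.241, against a median of -0.065 over all remaining clusters. Of 6 further genes of iron regulatory protein control, 4 were measured, with a median of -0.00603. The mRNAs of EPAS1, ALAS2 and the kinase gene CDC42BPA carry iron responsive elements. EPAS1, which encodes the hypoxia inducible factor HIF2A, was at 7.27, 7.17 and 7.13 and at 6.94, 7.10 and 6.52, a difference of -0.34 (standard error 0.15, limma adjusted p = 0.51) that was -0.0872 on leaf extract array 2 alone. ALAS2, the erythroid enzyme of haem synthesis, was at 2.87 to 3.07 in untreated cells, below that 95th percentile, with a difference of 0.13 (standard error 0.08). Set beside each other, genes whose mRNAs carry such elements had differences of -0.0013 for TFRC, -0.16 for SLC11A2, -0.0882 for SLC40A1, -0.30 for FTL, -0.34 for EPAS1, 0.13 for ALAS2 and -0.0023 for CDC42BPA. Not all of these elements act on mRNA levels, since that of ferritin acts on translation. The values are therefore no measure of the activity of iron regulatory proteins.

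Iron-sulfur clusters are assembled on the scaffold protein ISCU, and 19 of 23 genes of this machinery were measured with a median difference of -0.0229. NFU1, which helps to hand clusters to their target enzymes, was at 6.02, 5.86 and 5.89 in untreated cells and 5.78, 5.63 and 5.17 after the extract, a difference of -0.40 (standard error 0.16, limma adjusted p = 0.51). ISCU and the mitochondrial chaperone HSPA9 had differences of -0.0807 and -0.0819 with narrowly separate groups, and these turned to 0.0333 and 0.0405 after quantile normalization. ISCA1 has 2 clusters. The brighter had a difference of -0.59 (standard error 0.20, limma adjusted p = 0.50) with overlapping groups and -0.19 on leaf extract array 2, and the dimmer one of -0.22 (standard error 0.09) with separate groups. In the list of mitochondrial iron import, haem synthesis and haem breakdown, 15 of 16 genes were measured, with a median of -0.0561. The groups overlapped for all 15 in the brighter or only cluster of each gene. SLC25A37, the mitochondrial iron importer, has a dimmer cluster at 2.93, below background, with all leaf extract arrays higher and a difference of 0.35 (standard error 0.10), against -0.15 in its brighter cluster. ALAS1, the first enzyme of haem synthesis in the liver, had a difference of 0.24 (standard error 0.13), and 0.47 on leaf extract array 2 alone, and HMOX1, which breaks haem down and releases its iron, one of -0.0880 (standard error 0.11) at an untreated mean of 6.62.

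**Figure D4:**
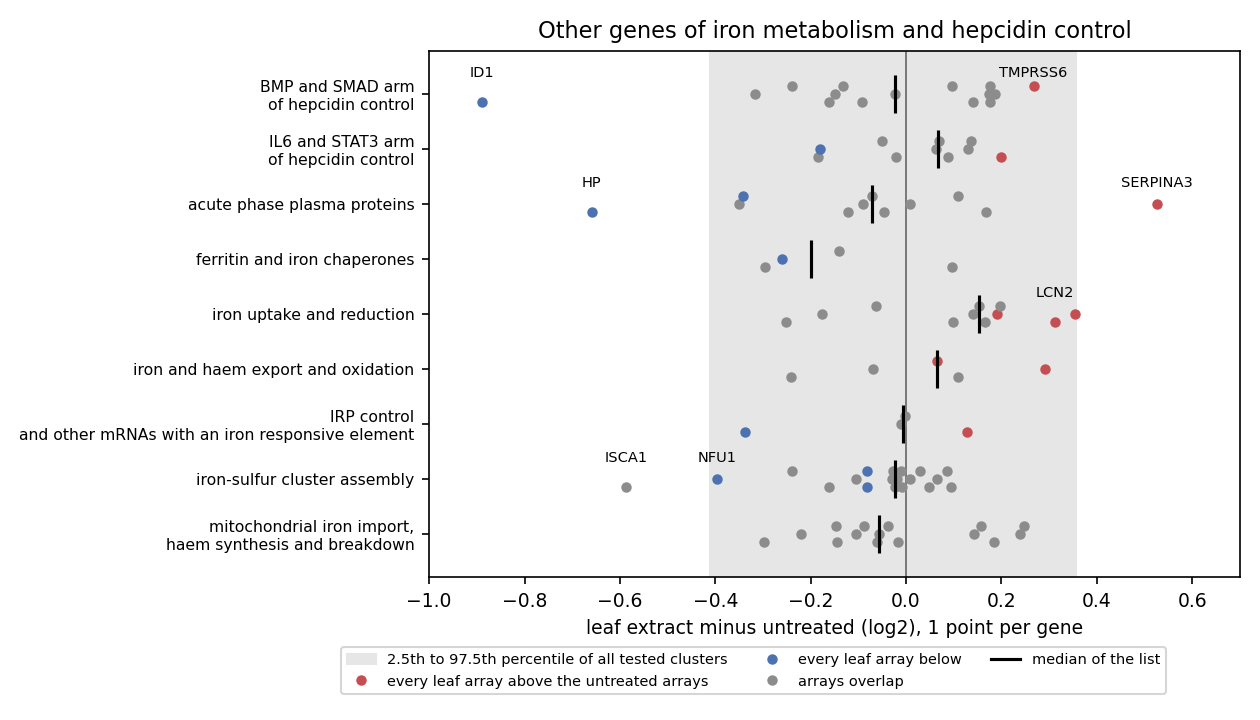
Differences between leaf-treated and untreated cells (log2) for the 94 measured genes of the 9 companion lists, 1 point a gene. Red and blue points had every leaf extract array above or below every untreated array (n = 3 a group), grey points overlapped, black lines are list medians and the grey band spans the 2.5th to 97.5th percentile of all clusters. ID1, HP and the brighter cluster of ISCA1 lie furthest to the left and SERPINA3 furthest to the right.

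The clusters whose profile over the 6 arrays was most like that of HAMP were sought by the root mean square difference after each cluster had been centred on its untreated mean. The nearest was the glutathione transferase GSTA1, at 0.39, with log2 values of 6.55 to 6.70 in untreated and 3.55 to 4.53 in leaf-treated cells. ID2, a relative of ID1, followed at 0.54, then the vitamin D hydroxylase CYP24A1 at 0.67, the histone gene H2BC14 at 0.75 and the reductase PTGR1 at 0.76. The measure rewards a decrease of like size on each array and does not require a like order of the arrays. ID2 was lowest on leaf extract array 2, at -1.55 from its untreated mean, whereas HAMP was at its highest of the leaf extract arrays there. None of the 5 genes is in the lists above.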

How the data were processed

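HepG2 RNA was measured on the Affymetrix Human Gene 1.0 ST array, and the values used are those the authors deposited, on the log2 scale, in 1 table of 6 arrays. GCOS, Partek and RMA are named in the submitters' processing notes. Their versions and settings were not given in the sources used here. RMA subtracts background, normalises between arrays and summarises the probes of each transcript cluster. Of 33297 rows, 4468 were 0 on all arrays and were left out. GEO's platform annotation, matched to RefSeq through Entrez identifiers, gave exactly 1 symbol to 19291 of the remaining rows (18372 genes), several to 1735 and none to 7803.

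Groups and replicate numbers were taken from the sample titles. Leaf extract and untreated arrays were compared over the 19291 clusters with limma 3.58.1 in R 4.3.3 (lmFit and eBayes, no covariate), and p-values were adjusted by Benjamini-Hochberg. A cluster was called at an adjusted p under 0.05. Clusters past the series' design thresholds (a change of 1.5 fold or more and p under 0.05 before adjustment) were counted from the same fit. The fit was tested on simulated data.

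The 10 iron handling genes and the 9 companion lists (105 genes) were chosen with earlier results of these data known, and no test is given for the 10 genes. For a companion gene with several clusters, the one with the highest mean was used. The companion genes named are those called and otherwise up to 3 per list with the largest difference among those whose groups did not overlap. The 5 clusters nearest to HAMP were ranked by root mean square difference. ISCA1, FTL, ORM1 and every other companion gene given with overlapping groups or by a second cluster is outside this rule and was chosen after its values were seen.

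Nothing says whether the replicates, called biological in the labels, came from separate cultures, so the p-values reflect no more than the spread among these arrays, which may be technical. The number of arrays limits the precision. Alternatives were centring each array on its median, quantile normalization, a filter on clusters with a mean log2 value under 4, a test of every row above 0, a robust fit with an intensity trend, weights for arrays, the analysis of variance named in the series' design, the replicate number as a block, the mean of a gene's clusters and leaving out each array in turn. Leaving out leaf extract arrays 1 and 3 together was added after seeing the data. Promoter sequences were read from a RefSeq table (GRCh38.p14), matched by symbol for 8 of the 10 genes.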

Additional observations from a re-analysis of the deposited data

How the results depend on the processing

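Of 148 recomputed differences of these genes, 141 stayed within the spread between replicates, and 6 of the 10 genes kept their sign under every setting. Part of this tally was fixed in advance, because some settings cannot change a difference of group means. These are the filter on dim clusters, the test of every row, the trend and robust fit, and the replicate block. The mean of a gene's clusters is another, since each gene had 1 cluster. Quantile normalization gave 0.11 for ACO1, -0.0692 for HFE and 0.0509 for SLC40A1, with untreated levels of 7.95 for ACO1, 7.30 for SLC40A1 and 9.76 for TFRC. Centring on array medians gave -0.0822 for HFE. Leaf extract array 2 alone, a setting chosen after seeing the data that leaves 1 array in a group and assumes it to vary like the others, gave -1.81 for HAMP, 0.0167 for SLC40A1 and 0.18 for TFRC. With 1 array left out in turn, HAMP ranged from -2.28 to -1.99 and CP from 0.53 to 0.76.

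The clusters called, 1 in all, were 8 after quantile normalization, 3 after centring, 4 without dim clusters, 2 with every row, 2 with the trend and robust fit, 3 with array weights, and 0 by analysis of variance, with leaf extract array 2 alone and without any 1 array (0 to 0). Clusters higher at an unadjusted p under 0.05 were 376 after centring, 299 without dim clusters, 478 by analysis of variance, 1572 with leaf extract array 2 alone and 393 to 1598 without 1 array, against 746. Lower ones were 1875 after centring, 708 by analysis of variance and 561 to 2264 without 1 array, against 1139. Past the design's thresholds, higher clusters were 30 after centring, 88 with every row, 82 with array weights, 33 by analysis of variance, 140 with leaf extract array 2 alone and 41 to 167 without 1 array, against 52. Lower ones were 189 after centring, 68 by analysis of variance, 55 with leaf extract array 2 alone and 68 to 323 without 1 array, against 110. The highest of the 4 ranges of uncorrected counts came without leaf extract array 2, and the lowest without untreated array 1 (393, 561 and 68) or untreated array 2 (41).

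No companion gene was called under any setting. Those higher at an unadjusted p under 0.05 were 10 after quantile normalization, 3 after centring, 2 without dim clusters, 13 with leaf extract array 2 alone and 3 to 10 without 1 array, against 5. Lower ones were 11 after centring, 11 with array weights, 4 by analysis of variance and 3 to 17 without 1 array, against 7. Past the design's thresholds, 1 was higher after quantile normalization, 1 with leaf extract array 2 alone and 0 to 1 without 1 array, against 0, and 1 was lower after quantile normalization, 1 with leaf extract array 2 alone and 1 to 3 without 1 array, against 3. The cause was not tested.

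Deviations from the group means were correlated between untreated and leaf extract arrays over all tested clusters. Arrays of the same replicate number gave -0.115, -0.177 and 0.121, and pairs of unlike number gave -0.188 to 0.271. The deviations cancel within each group, so these values cannot tell whether arrays of the same number shared a culture or a batch. With the replicate number as a block, 0 clusters were called.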
